A study of Mus musculus with 12 samples.

Results

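A set of 10 genes, most of which make, sense or remove extracellular adenosine, was followed in kidneys and kidney F4/80+ preparations of mice that differ at Sh2b3. The set was chosen by gene function around Nt5e, which encodes the ectoenzyme CD73 and was selected on its lower level in Trp/Trp than in Arg/Arg kidneys of these same libraries. The 10 genes were Nt5e, Entpd1, Entpd2, Entpd5, Adora1, Adora2a, Adora2b, Slc29a1, Ada and Adk. All 10 were among the 15361 genes of the kidney table, and 9 were among the 18145 genes of the F4/80+ table, where Adora2a had no row and was not analysed. All 10 and all 9 passed the filter on low counts.

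The mice were edited with CRISPR-Cas9 to be homozygous for a coding allele of Sh2b3, which encodes the adaptor LNK, a brake on cytokine signalling. Trp/Trp mice carried the minor allele and Arg/Arg mice the major one. Every mouse, of either genotype, had received angiotensin II, a hormone that raises blood pressure, for 4 weeks, so no library shows the state before treatment. The 4 groups were Trp/Trp F4/80+, Arg/Arg F4/80+, Trp/Trp kidney and Arg/Arg kidney, with 3 biological replicates each, and the F4/80+ cells came by microbeads and a Percoll gradient from kidneys other than those sequenced whole and are labelled macrophages. The labels give neither the age nor the sex of the mice, nor whether a replicate was 1 animal.

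Adenosine is made outside cells in steps. ATP and ADP that leave a cell are cut to AMP by ectonucleotidases such as CD39, the product of Entpd1, and CD73 then cuts AMP to adenosine. Adenosine acts on receptors that lower or raise cyclic AMP and is taken away by uptake, deamination or phosphorylation. In the kidney CD73 is known from the proximal tubule brush border and from interstitial fibroblasts, and adenosine carries the tubuloglomerular feedback signal that constricts the afferent arteriole.

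Trp/Trp and Arg/Arg libraries did not overlap for Nt5e and Entpd5 in kidney, the contrast that chose the set, and for Adora2b in F4/80+ preparations. Over all genes tested, every Trp/Trp library was above every Arg/Arg library for 6.62% in kidney and 7.19% in F4/80+ preparations. The reverse held for 3.6% and 3.33%. The promoters of Nt5e, Adora2b and Entpd5 are shown because these 3 members did not overlap, and nothing is read from their number. Each is the 250 bases before the RefSeq transcription start, 5′ to 3′ on the gene's strand, from RefSeq with build GRCm38.p6. Nt5e lies at chr9:88327359-88327608 on the plus strand, Adora2b at chr11:62248734-62248983 on the plus strand and Entpd5 at chr12:84409030-84409279 on the minus strand. The Nt5e window starts inside the gene as GENCODE bounds it, since the RefSeq start lies further in. Capitals mark ACGTG or GCGTG on either strand, the core that hypoxia-inducible factors bind, since CD73 and the Adora2b receptor are known from other systems as genes that hypoxia induces.
Nt5e: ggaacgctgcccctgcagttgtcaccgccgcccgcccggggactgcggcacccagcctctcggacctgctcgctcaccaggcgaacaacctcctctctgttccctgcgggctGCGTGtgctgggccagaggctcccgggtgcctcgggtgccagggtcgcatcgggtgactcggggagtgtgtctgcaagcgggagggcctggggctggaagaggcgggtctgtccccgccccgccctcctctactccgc
Adora2b: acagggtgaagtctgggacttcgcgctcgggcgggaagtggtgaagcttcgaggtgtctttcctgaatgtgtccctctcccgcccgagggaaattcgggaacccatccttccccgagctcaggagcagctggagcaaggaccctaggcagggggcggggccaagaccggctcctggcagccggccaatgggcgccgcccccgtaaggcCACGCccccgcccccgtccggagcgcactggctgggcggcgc
Entpd5: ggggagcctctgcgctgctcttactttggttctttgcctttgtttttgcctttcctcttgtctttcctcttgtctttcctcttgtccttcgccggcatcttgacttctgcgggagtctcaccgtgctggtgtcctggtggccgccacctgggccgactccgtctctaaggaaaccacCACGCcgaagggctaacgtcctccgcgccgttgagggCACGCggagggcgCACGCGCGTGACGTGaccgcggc

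The hypoxia core occurred once in the Nt5e window, 138 bases before the start, and once in the Adora2b window, 42 bases before it. The Entpd5 window held 5 matches, 3 of which run end to end near the start. The core was present in 38.6% of 32851 such windows over all genes. All motifs were searched on both strands. The GC box GGGCGG was found 4 times for Nt5e, 6 times for Adora2b and not for Entpd5, and 32.7% of windows held it. The letters TGACG, which cyclic AMP response factors bind, were found for Entpd5 only among the 3, where they overlap hypoxia cores, and 17.8% of windows held them. TATAAA was in none of the 3 and in 12.4% of windows. These are matches of letters, and no binding was measured here.

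Total counts were 35.9 to 51.6 M per F4/80+ library and 19.6 to 54.7 M per kidney library (M, 1000000 counts). Mitochondrial transcripts took 70.1 to 83.6% of counts in F4/80+ libraries and 7.86 to 9.35% in kidney libraries. Levels are therefore given as CPM, counts per 1000000 counts of the 13733 nuclear protein-coding genes that both tables hold. These genes had 6.88 to 11.1 M counts per F4/80+ library and 17.8 to 49.9 M per kidney library. Adgre1, the gene of F4/80 itself, was at 2.15, 11.5 and 16.7 CPM in Trp/Trp F4/80+ replicates 1, 2 and 3 and at 10.8, 1.26 and 2.05 in Arg/Arg F4/80+ replicates, against 6.67 to 8.33 in Trp/Trp kidney and 4.12 to 6 in Arg/Arg kidney. For the marker that names them, the F4/80+ libraries lay on both sides of whole kidney (log2 fold change 0.24, edgeR adjusted p = 0.655), and they are called preparations here. In kidney, Trp/Trp replicate 1 stood apart, with perirenal fat markers summing to 426 CPM against 117 to 161 in the other 5 libraries, and B and plasma cell markers to 90.3 against 4.32 to 5.67. Bulk RNA cannot tell fewer cells of a type from less RNA per cell. Sh2b3 was at 37.5 to 42.3 CPM in Trp/Trp and 31.2 to 40.3 CPM in Arg/Arg kidneys. A count per gene does not read the edited base.

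In whole kidney, Nt5e was the member that differed most by genotype. Nt5e (ENSMUSG00000032420.8, chromosome 9, 88327197 to 88372092 in mm10) was at 106, 96.4 and 127 CPM in Trp/Trp kidney replicates 1, 2 and 3, against 156, 182 and 146 CPM in Arg/Arg kidney replicates. The highest Trp/Trp library lay below the lowest Arg/Arg library. The means were 110 ± 15.4 and 161 ± 18.2 CPM in Trp/Trp and Arg/Arg kidneys (SD, n = 3 each), a log2 fold change of -0.58 ± 0.16 (SE), or 0.67-fold. This value chose the set, so it is a description with no test. It lay between -0.70 and -0.48 when each library was left out in turn and was -0.54 without Trp/Trp replicate 1. The raw counts behind it were 2249 to 9068 per library.

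The other nucleotidases differed less than Nt5e. Entpd1, whose product CD39 feeds AMP to CD73, was at 24.5, 18 and 15.8 CPM in Trp/Trp kidneys and at 12.9, 19.4 and 20.0 CPM in Arg/Arg kidneys, and the groups overlapped. Its log2 fold change was 0.14 ± 0.26, and -0.04 without Trp/Trp replicate 1. Entpd2, an ecto-ATPase that leaves ADP as its product, was at 5.57, 4.11 and 5.41 CPM in Trp/Trp and 4.86, 3.55 and 4.52 CPM in Arg/Arg kidneys. The groups overlapped. Entpd5 (ENSMUSG00000021236.16, chromosome 12, 84373857 to 84409029) encodes a nucleoside diphosphatase of the endoplasmic reticulum that serves protein glycosylation. It was the member with the most counts, at 540, 590 and 597 CPM in Trp/Trp and 634, 601 and 607 CPM in Arg/Arg kidneys. Its groups did not overlap, but the means of 576 ± 31.0 and 614 ± 17.8 CPM lay close (SD, n = 3 each), with a log2 fold change of -0.11 ± 0.07 that was -0.05 without Trp/Trp replicate 1.

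**Figure D1:**
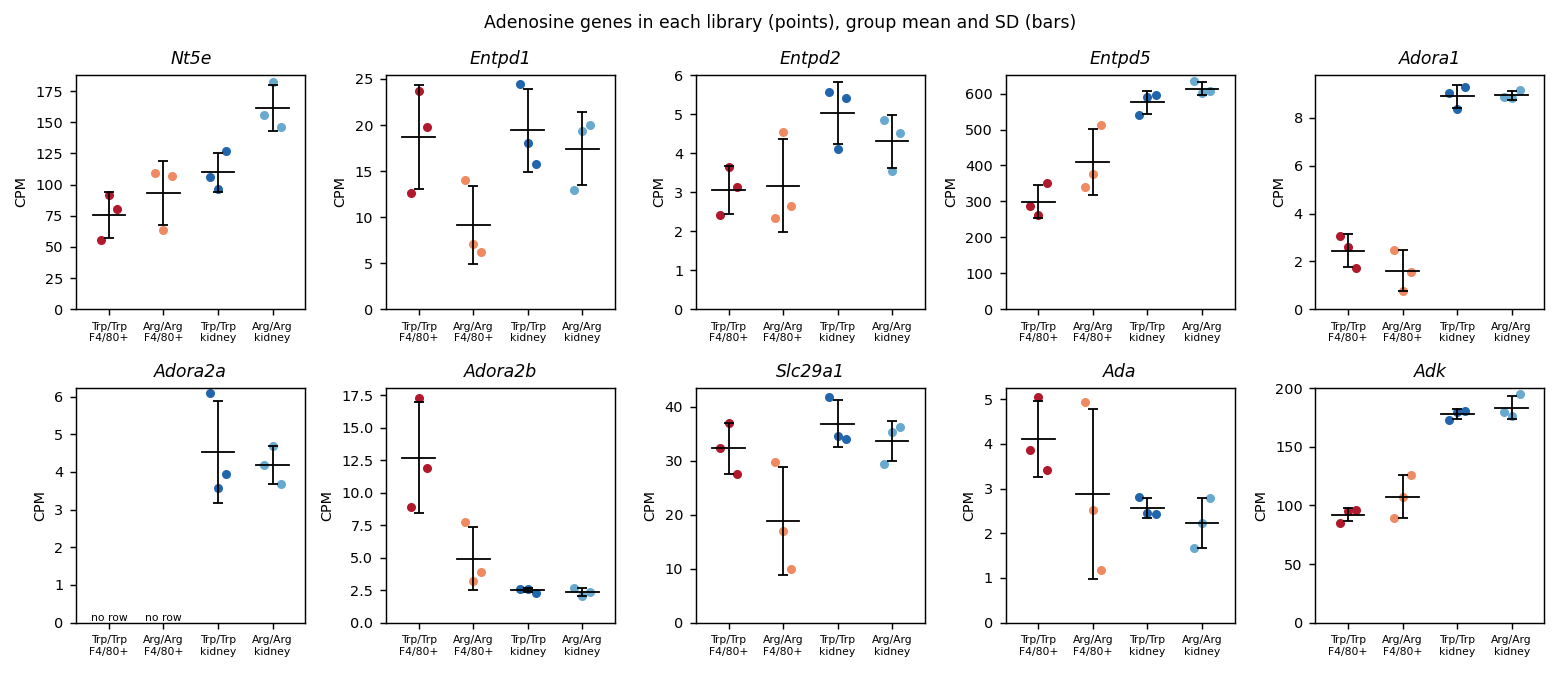
Level of each of the 10 genes in CPM (linear axes from 0) in every library of the 4 groups, with points for libraries, a line at the group mean and bars for the SD. Nt5e in Trp/Trp kidneys, at 96.4 to 127 CPM, lies below Arg/Arg kidneys at 146 to 182 CPM, and Adora2b in Trp/Trp F4/80+ preparations, at 8.88 to 17.3 CPM, lies above every other library.

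The adenosine receptors were close between genotypes in kidney. Adora1 encodes the receptor that lowers cyclic AMP and mediates afferent constriction. It was at 9.04, 8.37 and 9.29 CPM in Trp/Trp and 8.85, 8.81 and 9.15 CPM in Arg/Arg kidneys, with a log2 fold change of -0.03 ± 0.05, the smallest SE of the 10 genes. Adora2a, whose product raises cyclic AMP and dilates vessels, was at 6.09, 3.57 and 3.94 CPM in Trp/Trp and 4.18, 4.69 and 3.69 CPM in Arg/Arg kidneys. Its value of 0.09 ± 0.24 was -0.18 without Trp/Trp replicate 1, the library high in fat markers. Adora2b, the receptor of low affinity that also raises cyclic AMP, was at 2.58, 2.55 and 2.31 CPM in Trp/Trp and 2.62, 2.02 and 2.38 CPM in Arg/Arg kidneys, with 41 to 108 counts per library.

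The genes that remove adenosine overlapped between genotypes as well. Slc29a1, the equilibrative nucleoside transporter ENT1, was at 41.9, 34.6 and 34.1 CPM in Trp/Trp and 29.5, 35.4 and 36.3 CPM in Arg/Arg kidneys. Ada, adenosine deaminase, was at 2.42 to 2.81 CPM in Trp/Trp and 1.66 to 2.78 CPM in Arg/Arg kidneys, and Adk, adenosine kinase, at 173 to 181 CPM in Trp/Trp and 176 to 195 CPM in Arg/Arg kidneys. Their log2 fold changes were 0.11 ± 0.12, 0.19 ± 0.21 and -0.06 ± 0.06. Of the 10 genes, 2 had every Trp/Trp kidney below every Arg/Arg kidney, as did 3.6% of the 14464 genes tested, and 0 had every Trp/Trp kidney above, as did 6.62%. Since this contrast chose the set, nothing is read from those counts. The median log2 fold change was 0.08 over the 10 genes and 0.00 over all genes.

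Markers of the cells that carry CD73 were set beside the Nt5e values. The 15 proximal tubule markers summed to 29700, 33200 and 35600 CPM in Trp/Trp kidney replicates 1, 2 and 3 and to 36000, 34800 and 31300 CPM in Arg/Arg kidney replicates, so the groups overlapped, and 6 of the 15 had a positive and 9 a negative log2 fold change, with a median of -0.01. The 9 interstitial fibroblast markers in the table summed to 791, 453 and 471 CPM in Trp/Trp and to 438, 441 and 445 CPM in Arg/Arg kidneys, and all 9 had a positive log2 fold change. Of 13 resident macrophage markers tested, 12 had a positive log2 fold change, with a median of 0.55. The sum of the 14 listed was 451 to 527 CPM in Trp/Trp and 437 to 441 CPM in Arg/Arg kidneys. Cd81, singled out after its values were seen, averaged 281 CPM of that sum in Trp/Trp and 285 CPM in Arg/Arg kidneys. Every Trp/Trp kidney lay above every Arg/Arg kidney for 7 of the 14 and below for 0, beside 6.62% and 3.6% of all genes tested. The part of any of these cell types in the Nt5e values was not tested.

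The genes whose levels followed Nt5e most closely over the 6 kidney libraries were Skp1a, Abcd3, Gk5, Sgtb and Rer1, with Pearson r of 0.99, 0.98, 0.98, 0.97 and 0.97 on log2(CPM + 0.5). They were the first 5 of 10811 named genes with a mean of at least 5 CPM, of which 13 had an r above 0.95. Their own genotype differences were smaller than that of Nt5e. Skp1a, a subunit of ubiquitin ligases, was at 329 to 336 CPM in Trp/Trp and 345 to 354 CPM in Arg/Arg kidneys, and Abcd3, a peroxisomal fatty acid transporter, at 455 to 483 and 495 to 532 CPM in the same groups. Sgtb was at 4.67 to 5.35 CPM in Trp/Trp and 6.04 to 7.41 CPM in Arg/Arg kidneys. Over the 6 F4/80+ libraries the r with Nt5e was 0.80 for Skp1a, 0.32 for Abcd3, 0.57 for Gk5, 0.14 for Sgtb and -0.31 for Rer1. Among the members, Entpd5 had the highest r with Nt5e in kidney, at 0.62, and Adora2b the lowest, at -0.63. Each r rests on 6 libraries of both genotypes and is a description. The kidney values of Nt5e behind this ranking are those that chose the set. How many genes would reach such an r by chance was not tested, so nothing is read from the ranking.

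The F4/80+ preparations came from other kidneys than those whose Nt5e level chose the set. No member passed the genotype comparison there, and Adora2b, Entpd1 and Slc29a1 had the highest positive differences. Adora2b (ENSMUSG00000018500.2, chromosome 11, 62248984 to 62266453 in mm10) was at 8.88, 17.3 and 11.9 CPM in Trp/Trp F4/80+ replicates 1, 2 and 3, against 7.71, 3.16 and 3.91 CPM in Arg/Arg F4/80+ replicates. Every Trp/Trp library was above every Arg/Arg library, with Trp/Trp replicate 1 and Arg/Arg replicate 1 nearest to each other. The means were 12.7 ± 4.24 and 4.93 ± 2.44 CPM in Trp/Trp and Arg/Arg preparations (SD, n = 3 each), a log2 fold change of 1.26 ± 0.35 (SE), or 2.40-fold, from 25 to 147 counts per library. It did not pass edgeR's quasi-likelihood test across all genes (adjusted p = 0.605, and 0.0877 to 1 when single libraries were left out).

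Entpd1 was at 12.6, 23.7 and 19.8 CPM in Trp/Trp and 14, 7.08 and 6.26 CPM in Arg/Arg F4/80+ preparations. Arg/Arg replicate 1 lay within the Trp/Trp range, and the log2 fold change was 0.94 ± 0.33 (edgeR adjusted p = 0.605, and 0.101 without Arg/Arg replicate 1). Slc29a1 was at 32.3, 37.0 and 27.6 CPM in Trp/Trp and 29.8, 16.9 and 9.98 CPM in Arg/Arg preparations. Again Arg/Arg replicate 1 was the library that met the Trp/Trp range, and the log2 fold change of 0.69 ± 0.38 did not pass (adjusted p = 0.616). Ada showed the same layout, at 3.86, 5.05 and 3.41 CPM in Trp/Trp and 4.94, 2.53 and 1.17 CPM in Arg/Arg preparations (0.45 ± 0.49, adjusted p = 0.883).

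Nt5e, Entpd5 and Adk were on the negative side in F4/80+ preparations. Nt5e was at 55.5, 91.6 and 80.1 CPM in Trp/Trp and 109, 63.7 and 107 CPM in Arg/Arg preparations, with overlap through Arg/Arg replicate 2. Its log2 fold change of -0.43 ± 0.27 had the sign of the kidney value but did not pass (edgeR adjusted p = 0.677). Entpd5 was at 286, 261 and 351 CPM in Trp/Trp and 341, 375 and 513 CPM in Arg/Arg preparations (-0.60 ± 0.31, adjusted p = 0.618). Adk was at 85.4 to 95.8 CPM in Trp/Trp and 89.7 to 126 CPM in Arg/Arg preparations (-0.38 ± 0.24, adjusted p = 0.71). For these 3 genes the genotype groups overlapped. Entpd2 and Adora1 were thinly sampled, at 16 to 36 and 6 to 34 counts per library. Entpd2 was at 2.42, 3.64 and 3.15 CPM in Trp/Trp and 2.33, 4.55 and 2.64 CPM in Arg/Arg preparations (-0.22 ± 0.37, adjusted p = 0.966). Adora1 was at 3.05, 2.58 and 1.71 CPM in Trp/Trp and 2.47, 0.758 and 1.57 CPM in Arg/Arg preparations (0.54 ± 0.42, adjusted p = 0.863), with overlap in both genes.

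Across the 15225 genes tested in F4/80+ preparations edgeR called 0, or 0%, and it called 0 of the 9 members. At an unadjusted p under 0.05 there were 3 of 9 members, namely Adora2b, Entpd1 and Slc29a1, and 8.04% of all genes. DESeq2 called 0 members too, although it gave 6 of the 9 no adjusted p, and 11 of all genes, or 0.0722%. At an unadjusted p under 0.05 it had 4 of 9 members and 9.09% of all genes. Every Trp/Trp library was above every Arg/Arg library for 1 of 9 members and for 7.19% of all genes, and below for 0 of 9 members and 3.33% of all genes. The median log2 fold change was 0.45 over the 9 members and 0.01 over all genes. Whether the genotype difference of any member itself differed between F4/80+ preparations and kidney was not tested.

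**Figure D2:**
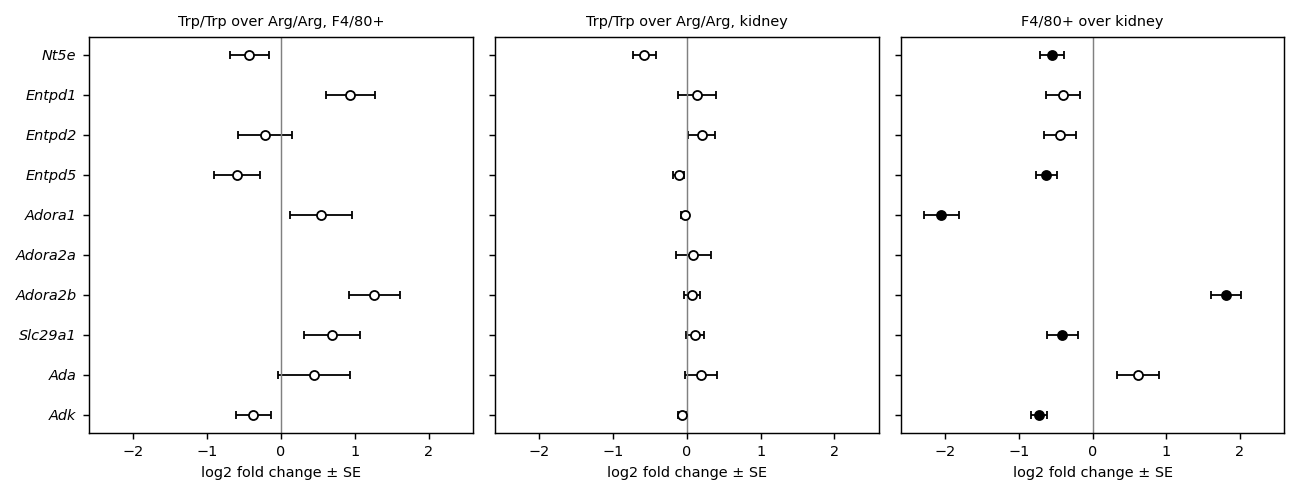
Log2 fold change of each gene with its SE from the spread of log2 CPM between libraries, for Trp/Trp over Arg/Arg in F4/80+ preparations, Trp/Trp over Arg/Arg in kidney, and F4/80+ over kidney. Filled points passed edgeR at an adjusted p under 0.05, the kidney genotype values carry no test, and the 6 filled points all stand in the sample type comparison, where that of Nt5e rests in part on the kidney values that chose the set, with Adora2b at 1.81 and Adora1 at -2.05.

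Markers of tubule cells and macrophages were set beside these values. The 15 proximal tubule markers summed to 31600, 18000 and 29100 CPM in Trp/Trp F4/80+ replicates 1, 2 and 3 and to 27500, 54600 and 52000 CPM in Arg/Arg F4/80+ replicates, and all 15 had a negative log2 fold change. The 8 distal tubule and collecting duct markers in the table summed to 7980, 9920 and 6380 CPM in Trp/Trp and to 8620, 3290 and 2930 CPM in Arg/Arg preparations, and all 8 had a positive one. In both sums Arg/Arg replicate 1 lay with the Trp/Trp libraries, as it did for Entpd1, Slc29a1 and Ada. The 12 resident macrophage markers in the table summed to 739 to 788 CPM in Trp/Trp and 498 to 667 CPM in Arg/Arg preparations, of which Cd81, which other kidney cells also express, averaged 550 CPM in Trp/Trp and 490 CPM in Arg/Arg preparations. Cd81 is singled out after its values were seen. Of the 11 macrophage markers tested, all 11 had a positive log2 fold change, with a median of 1.07. The macrophage markers Trem2 and Fcgr1 had no row in that table. None of the marker genes passed in edgeR. Their part in the values of any member in F4/80+ preparations, Nt5e, Entpd5 and Adk included, was not tested.

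**Figure D3:**
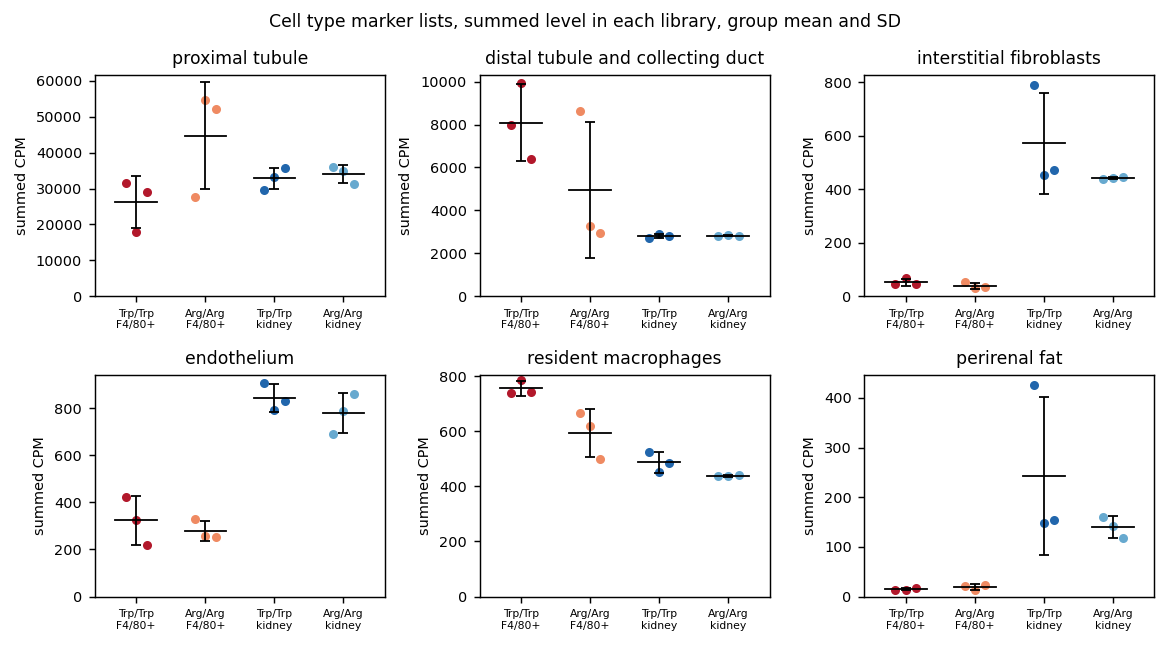
Summed CPM of 6 lists of cell type markers in every library (linear axes from 0), over the genes each table holds (for fibroblasts 7 in the F4/80+ and 9 in the kidney table), with points for libraries, a line at the mean and bars for the SD of the 3 libraries of each group. Proximal tubule markers were at 18000 to 31600 CPM in Trp/Trp and 27500 to 54600 CPM in Arg/Arg F4/80+ preparations, and fibroblast markers were at 66.6 CPM or less in every F4/80+ library.

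Between sample types, the adenosine receptors moved in opposite directions. Adora2b rose in F4/80+ preparations and Adora1 fell, both relative to whole kidney. Adora2b was at 3.16 to 17.3 CPM in the 6 F4/80+ libraries (median 8.30) and at 2.02 to 2.62 CPM in the 6 kidney libraries (median 2.47). No F4/80+ library reached down to the kidney range, and the log2 fold change was 1.81 ± 0.20, or 3.51-fold (edgeR adjusted p = 5.64e-06). Adora1 was at 0.758 to 3.05 CPM in F4/80+ libraries (median 2.09) and 8.37 to 9.29 CPM in kidney libraries (median 8.95). The ranges were far apart, with a log2 fold change of -2.05 ± 0.24, or 0.242-fold (adjusted p = 1.46e-06).

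Adk and Entpd5 fell in F4/80+ preparations. Adk was at 85.4 to 126 CPM in F4/80+ and 173 to 195 CPM in kidney libraries, without overlap, and fell to 0.606-fold (log2 fold change -0.72 ± 0.11, adjusted p = 9.17e-05). Entpd5 was at 261 to 513 CPM in F4/80+ and 540 to 634 CPM in kidney libraries, also without overlap, and fell to 0.648-fold (-0.63 ± 0.14, adjusted p = 0.00149). Nt5e was at 55.5 to 109 CPM in F4/80+ libraries (median 85.9) and at 96.4 to 182 CPM in kidney libraries (median 136). Its ranges overlapped where Arg/Arg preparations met Trp/Trp kidneys, and the log2 fold change was -0.55 ± 0.16, or 0.684-fold. The kidney values in it are those that chose the set, so no p is given.

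From low to high, the mean level of Nt5e was 75.7 ± 18.5 CPM in Trp/Trp F4/80+, 93.1 ± 25.5 CPM in Arg/Arg F4/80+, 110 ± 15.4 CPM in Trp/Trp kidney and 161 ± 18.2 CPM in Arg/Arg kidney (SD, n = 3 each). Of the neighbours in that order, only the kidney groups did not overlap. That contrast chose the set, so nothing is read from it. The remaining members lay near the threshold between sample types. Slc29a1 was at 9.98 to 37.0 CPM in F4/80+ and 29.5 to 41.9 CPM in kidney libraries, a log2 fold change of -0.41 ± 0.21 that passed narrowly (adjusted p = 0.0491) and did not pass in 9 of the 12 fits that left out a library, over which it lay between -0.60 and -0.26. It passed without Trp/Trp F4/80+ replicate 2, Arg/Arg F4/80+ replicate 1 or Arg/Arg kidney replicate 1. Entpd1 (-0.40 ± 0.23, adjusted p = 0.0921), Entpd2 (-0.44 ± 0.21, adjusted p = 0.0888) and Ada (0.61 ± 0.29, adjusted p = 0.0554) did not pass. Single libraries decided these calls, since Entpd1 passed without Arg/Arg F4/80+ replicate 1 (adjusted p = 0.0195) or Arg/Arg kidney replicate 1 (0.0492), Entpd2 without Arg/Arg F4/80+ replicate 2 (0.0126) and Ada without Arg/Arg F4/80+ replicate 3 (0.00627).

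Of the 9 members tested between sample types, 1 rose and 5 fell in F4/80+ preparations, and 3 did not pass. Nt5e is counted among the 5, and without it 1 of 8 rose and 4 fell. The background was high, since 32.3% of the 13578 genes tested rose and 32% fell. Nothing particular to the members is read from their counts. The median log2 fold change was -0.44 over the 9 members and -0.01 over all genes. Replicate spread was wider in F4/80+ preparations than in kidney (common biological coefficient of variation 0.28 and 0.101), while the fit across all 12 libraries used a shared 0.19. Marker levels differed too. The 7 fibroblast markers held by both tables all fell, and these 7 summed to 30.3 to 66.6 CPM in F4/80+ and 429 to 758 CPM in kidney libraries. Of 12 resident macrophage markers tested between sample types, 5 rose, 4 fell and 3 did not pass. Intercalated cell markers, 6 of 6, rose and summed to 1150 to 3260 CPM in F4/80+ and 494 to 582 CPM in kidney libraries. The part of these cell types in the members' values was not tested. Sample type, preparation and the filtering of each table cannot be told apart here.

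Per length of exon, Entpd5 was the most abundant member in both sample types, at 58.8 ± 14.7 CPM per kb in F4/80+ and 98.5 ± 5.10 CPM per kb in kidney libraries (SD, n = 6 each). Adk at 11.7 and 21.2 CPM per kb and Nt5e at 9.81 and 15.8 CPM per kb in F4/80+ and kidney libraries came next, followed by Slc29a1 at 6.39 and 8.81. In kidney the adenosine receptors stood close together, with Adora1 at 1.54 ± 0.06, Adora2a at 1.42 ± 0.31 and Adora2b at 1.31 ± 0.12 CPM per kb. Adora2a overlapped both others, while the lowest Adora1 library lay above the highest Adora2b library. In F4/80+ preparations Adora2b, at 4.78 ± 2.85 CPM per kb, was above Adora1, at 0.349 ± 0.144 CPM per kb, in each library. Entpd1, the CD39 gene, was at 2.49 and 3.30 CPM per kb in F4/80+ and kidney libraries, below Nt5e in both. Exons of Entpd2, Adora1 and Slc29a1 overlap those of Npdc1, Mybph and the antisense gene Gm17080, so reads there may have been shared.

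**Figure D4:**
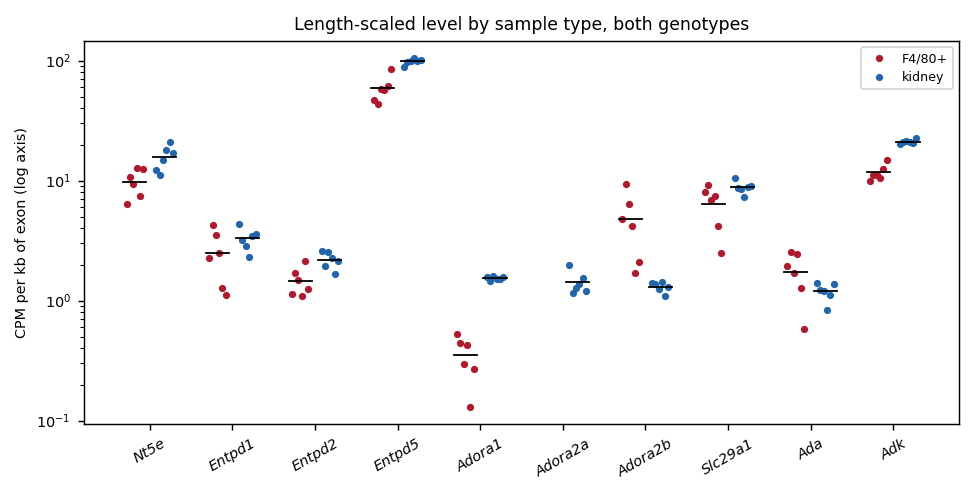
Level per length, as CPM per kb of annotated exon on a log axis, for each gene in the 6 F4/80+ libraries (left of each pair) and the 6 kidney libraries, with lines at the mean. The 3 receptors sit together at 1.31 to 1.54 in kidney, and in F4/80+ preparations Adora2b averages 4.78 and Adora1 0.349, while Adora2a has kidney values only.

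The rest of the purine pathway was described from lists of 83 further genes. Of these, 62 were tested by genotype in F4/80+ preparations, and edgeR called 0, as it did over all genes. At an unadjusted p under 0.05 there were 6 of 62, beside 8.04% of all genes. DESeq2 called 0 of them and 11 of all genes. A gene to which DESeq2 gave no adjusted p counted as not called, and how many of the 62 had none is not given here. The median log2 fold change was -0.05. Between sample types 64 were tested, of which 15 rose, 23 fell and 26 did not pass, beside 32.3% of all genes that rose and 32% that fell. The counts per list given next stand against these shares, and nothing particular to a list is read from them. By genotype in kidney 71 had a value, 39 of them positive, with a median of 0.03 beside 0.00 over all genes.

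Among the other nucleotidases 4 of 16 rose and 6 fell in F4/80+ preparations. Bst1, a cell surface enzyme that acts on NAD, was at 1.95 ± 1.39 CPM in F4/80+ and 14.5 ± 1.62 CPM in kidney libraries (SD, n = 6 each), a log2 fold change of -2.96 (adjusted p = 8.01e-07). Alpl, tissue-nonspecific alkaline phosphatase, which can also cut AMP to adenosine, was at 181 ± 65.7 and 335 ± 16.8 CPM in F4/80+ and kidney libraries (-0.76, adjusted p = 0.00532). Enpp4, an ectoenzyme of the nucleotide phosphodiesterase family, rose, at 81.8 ± 29.5 and 36.8 ± 2.29 CPM (1.23, adjusted p = 1.03e-05). Alpl was thus at a higher CPM than Nt5e in both sample types. Per length of exon it was higher too, at 44.9 and 83.1 CPM per kb in F4/80+ and kidney libraries, against 9.81 and 15.8 for Nt5e.

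Of 9 receptors for ATP and related nucleotides tested, 2 rose and 2 fell. P2ry14, the UDP-glucose receptor, was at 7.07 ± 3.11 CPM in F4/80+ and 3.09 ± 0.404 CPM in kidney libraries (log2 fold change 1.23, adjusted p = 0.000574), and P2ry1, an ADP receptor, at 9.87 ± 1.87 and 5.80 ± 0.803 CPM (0.91, adjusted p = 0.000215). P2ry2, a tubular ATP and UTP receptor, fell, at 5.66 ± 2.86 and 9.45 ± 0.684 CPM (-0.71, adjusted p = 0.00558). Of 6 genes of ATP release, 1 rose and 4 fell, with Gja1, connexin 43, at 3.61 ± 3.17 CPM in F4/80+ and 9 ± 1.68 CPM in kidney libraries (-1.39, adjusted p = 0.00252) and Ank, a membrane protein of pyrophosphate and ATP export, at 26.2 ± 13.2 and 14.3 ± 1.80 CPM (0.95, adjusted p = 0.00415).

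Of 17 genes of adenosine and purine metabolism 4 rose and 6 fell. Pnp, purine nucleoside phosphorylase, which acts on the inosine that Ada makes, was at 124 ± 9.96 CPM in F4/80+ and 34.4 ± 2.37 CPM in kidney libraries (log2 fold change 1.98, adjusted p = 3.65e-09). Its near copy Pnp2 may share reads with it. Ahcy, which releases adenosine from S-adenosylhomocysteine inside cells, was at 112 ± 40.6 and 388 ± 25.3 CPM in F4/80+ and kidney libraries (-1.67, adjusted p = 2.02e-05). Ampd2, AMP deaminase, was at 11.6 ± 2.87 and 30.6 ± 2.84 CPM (-1.26, adjusted p = 1.33e-05). Slc29a3, a lysosomal nucleoside transporter, was the 1 of 3 other transporters that rose, at 209 ± 65.5 and 122 ± 10.4 CPM (0.88, adjusted p = 0.000223).

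Downstream, 3 of 13 genes of cyclic AMP signalling rose and 5 fell in F4/80+ preparations. Pde4b, which degrades cyclic AMP, was at 48.6 ± 20.8 CPM in F4/80+ and 15 ± 1.71 CPM in kidney libraries (log2 fold change 1.75, adjusted p = 2.53e-06), and Crem, a transcription factor of the cyclic AMP response, at 37.9 ± 10.5 and 16 ± 1.97 CPM (1.36, adjusted p = 5.81e-06). Gnas, the stimulatory G protein subunit, was at 3.39 ± 1.13 and 38.4 ± 1.36 CPM (-3.43, adjusted p = 1.23e-09), but its locus holds overlapping transcripts and its counts are uncertain.

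**Figure D5:**
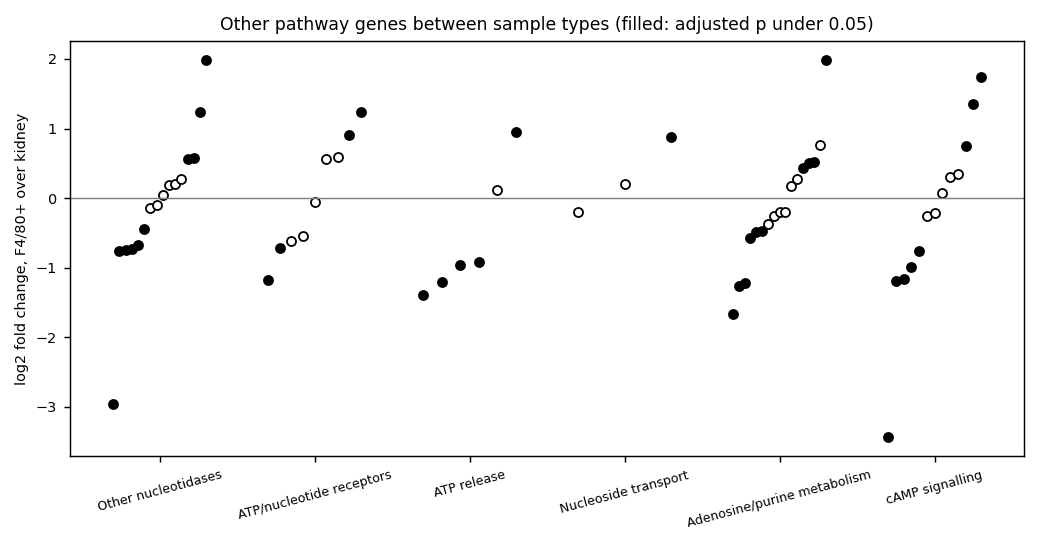
Log2 fold change of F4/80+ over kidney for the 64 other pathway genes tested, by role and sorted within a role, with filled points for an edgeR adjusted p under 0.05. The filled points number 15 above and 23 below 0, with Pnp at 1.98 and Gnas at -3.43 among them.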

How the data were processed

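RNA of whole kidneys and of F4/80+ preparations was sequenced after poly(A) selection, per the labels' protocols. Tools in the submitters' processing notes are DRAGEN, STAR and DESeq2, with build mm10 and no roles or versions. The release of the annotation is not given in the sources used here. In a table per sample type, the authors deposited raw counts per gene and library. The deposited log2 fold change, its ratio, the p-values, the score columns (SE and Wald statistic) and the signal column (mean of counts divided by size factors) are as DESeq2 names them, per the file headers, and were not used. The smallest row sum was 12 in the kidney and 10 in the F4/80+ table.

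Groups came from the sample titles. Each table was fitted whole by genotype with edgeR 4.0.16 in R 4.3.3 (filterByExpr with minimum count 10 and minimum total 15, TMM, edgeR quasi-likelihood test, Benjamini-Hochberg over all genes, threshold 0.05). Sample types were compared over nuclear protein-coding genes of both tables in a group-means model of 12 libraries. Exon lengths came from GENCODE M21 and promoters from RefSeq, where 9 of 10 members matched. The SE is that of the difference of group means of log2 CPM (prior count 2). Alternatives were DESeq2 (1.42.0) and its size factors, limma (3.58.1) on log2 CPM, no filter, a replicate block, other gene sets and single libraries left out. The procedure was tested on simulated data. Plots used Python 3.11.15 and matplotlib 3.10.9.

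Members and lists were chosen with earlier results of these data known. Text names all members, up to 3 genes per list with the largest passing difference between sample types and a mean of at least 5 CPM, and the 5 genes most like Nt5e in kidney.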

Additional observations from a re-analysis of the deposited data

How the results depend on the processing

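The log2 fold change of Nt5e in kidney was -0.58 with an SE of 0.16 and moved by less than that SE under each alternative, namely scaling by DESeq2 size factors, no filter on low counts, DESeq2, the replicate block (-0.58), nuclear protein-coding genes only, and each library left out (-0.70 to -0.48). The Nt5e kidney values chose the set, so their steadiness is a description and no support for a difference. The count of members called by genotype in F4/80+ preparations was 0 under each of these alternatives, and so was that of other pathway genes. A gene to which DESeq2 gave no adjusted p, as for most members there, was counted as not called. Between sample types it was 6 or 7 members, Nt5e included, in the fits with all libraries and 5 to 7 without single libraries. For the other pathway genes it was 34 to 42. Over all genes tested, the main fit called 8734 of 13578, and fits without single libraries called from 8099 of 13547 to 9265 of 13698. Nothing particular to the members or the pathway genes is read from these counts. Entpd2 in F4/80+ preparations had -0.22 with all libraries and ranged from -0.47 to 0.18 without single libraries, changing sign without Arg/Arg replicate 2. Slc29a1 between sample types no longer passed with DESeq2 size factors (adjusted p = 0.0555) or with mitochondrial genes kept (0.0572), while Ada passed under both (0.0495 and 0.0413) and in DESeq2 (0.0229). The causes were not tested. Same-numbered Trp/Trp and Arg/Arg libraries did not deviate together (correlations -0.08, -0.02 and -0.01 in kidney and -0.31, -0.49 and 0.18 in F4/80+ preparations). Numbers were thus not taken as pairs, and the block changed no call of a member. Some F4/80+ libraries of unlike number did deviate together. Trp/Trp replicate 1 with Arg/Arg replicate 2 had 0.48 and Trp/Trp replicate 2 with Arg/Arg replicate 1 had 0.43. The remaining F4/80+ correlations between unlike numbers were -0.15 to -0.001. At 6 to 34 counts per library, Adora1 limits what could be seen by genotype in F4/80+ preparations.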
